A study of Mus musculus with 2 samples.

Results

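The genes described here are the miR-15/16 family genes of the mouse, Mir15a, Mir16-1, Mir15b, Mir16-2, Mir195a and Mir497, measured in the embryonic facial prominences. They were chosen by name, with no measured value used in the rule but with earlier results of these data known. They are 6 of the 1973 miRNA genes in the files. All 6 had a line: Mir497 was read at Mir497b, the gene drawn over it on the other strand, from the opposite-strand counts there, and the other 5 from counts on their own strand. The study sequenced RNA shorter than 30 bases from facial prominence tissue of healthy B6NCrl embryos of both sexes, pooled, at embryonic day 13.5. There were 2 libraries, biological replicates 1 and 2 of 1 group, with no allele or treatment named and no second condition. The data therefore give the level of each gene and its spread over these libraries.

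MicroRNAs are cut from hairpins in longer transcripts, and 1 arm of the hairpin, named 5p or 3p, is loaded into a silencing complex. Bases 2 to 8 of the loaded strand, the seed, pair with target messenger RNAs. The miR-15/16 family restrains the cell cycle and cell survival: known targets include cyclins D1 and E1, the kinases Wee1 and Chek1, and the survival protein Bcl2. Its genes lie in pairs. Mir15a and Mir16-1 sit in the long non-coding RNA gene Dleu2, in a region often deleted in human chronic lymphocytic leukaemia. Mir15b and Mir16-2 sit in Smc4, which encodes a condensin subunit, and Mir195a and Mir497 form the other pair, studied in heart and skeletal muscle for their part in cell cycle exit.

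The 5p sequences are shown first, because they define the family and decide which reads could be counted. They come from RefSeq (GRCm38.p6), where all 6 genes matched by symbol, and the capitals mark the seed.
Mir15a, miR-15a-5p: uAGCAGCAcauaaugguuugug
Mir15b, miR-15b-5p: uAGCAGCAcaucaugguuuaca
Mir16-1 and Mir16-2, miR-16-5p: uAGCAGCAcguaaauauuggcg
Mir195a, miR-195a-5p: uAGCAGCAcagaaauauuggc
Mir497, miR-497a-5p: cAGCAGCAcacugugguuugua

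All 6 genes carry the same 7-base seed, and the sequences part behind it; miR-497a-5p also differs in front of it, at the first base (U1C, with the miR-15a-5p base first). Counted from 1 at the 5′ end, miR-15a-5p and miR-15b-5p differed at 4 of 22 bases (A12C, G20A, U21C and G22A, with the miR-15a-5p base first). miR-16-5p and miR-195a-5p differed at 2 of the 21 bases compared (G10A and U11G, with the miR-16-5p base first). Thus Mir195a was closer in sequence to the Mir16 genes (90.5% identity) than to its neighbour Mir497 (57.1%). miR-497a-5p was closest to miR-15a-5p, at 77.3% identity. Among the 1005 hairpins of the RefSeq table and the mature sequences of Mir15a, the first 12 bases told the 5p sequences of Mir15a, Mir15b and Mir497 from all other genes. For miR-195a-5p 17 bases were needed, because it shares its first 16 bases with miR-195b.

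The exception is miR-16-5p, whose whole 22-base sequence is encoded by both Mir16-1 and Mir16-2. The hairpins of these genes are shown because the run they share sets what could be counted, and that run is in capitals.
Mir16-1: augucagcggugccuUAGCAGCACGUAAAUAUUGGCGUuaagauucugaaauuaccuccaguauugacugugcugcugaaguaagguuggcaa
Mir16-2: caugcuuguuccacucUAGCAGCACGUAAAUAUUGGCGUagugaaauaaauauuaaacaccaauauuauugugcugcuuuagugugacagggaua

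The shared run was 23 bases long, miR-16-5p and 1 base behind it, and no window of 24 bases was shared. A read that lies within this run fits both genes, and the files count reads with several places in a class of their own, with no gene. The counts of Mir16-1 and Mir16-2 are therefore counts of their other reads. Their 3p arms, which differ between the genes, are such reads. The files hold 1 count per hairpin and do not separate the arms. The 3p sequences, again with bases 2 to 8 in capitals, do not carry the seed of the family.
Mir16-1, miR-16-1-3p: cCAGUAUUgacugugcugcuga
Mir16-2, miR-16-2-3p: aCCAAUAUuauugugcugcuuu

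The hairpins of Mir15b, Mir195a and Mir497 shared no window of 18 or more bases with another hairpin of the table. Mir15a had no hairpin in the table.

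On GRCm38, Mir15a occupies positions 61632027 to 61632110 of chromosome 14, minus strand, and Mir16-1 positions 61631880 to 61631972 of that strand, 54 bases away. Both lie in an intron of Dleu2 in all 8 of its annotated transcripts that span them (GENCODE release M21). Mir15b occupies positions 69009772 to 69009835 of chromosome 3, plus strand, and Mir16-2 positions 69009902 to 69009996, 66 bases away, in an intron of Smc4 in all 5 spanning transcripts. Mir497 occupies positions 70234717 to 70234800 of chromosome 11, plus strand, and Mir195a positions 70235042 to 70235135, 241 bases away. No host gene overlaps this pair in that annotation; the nearest other gene, 0610010K14Rik, lies on the minus strand with its 3′ end 71 bases from Mir195a. Mir497b spans 70234692 to 70234816 on the minus strand and covers all 84 bases of Mir497. The files name Mir15a as ENSMUSG00000093007.1, Mir16-1 as ENSMUSG00000092995.1, Mir15b as ENSMUSG00000065580.1, Mir16-2 as ENSMUSG00000065606.1, Mir195a as ENSMUSG00000065411.2 and Mir497b as ENSMUSG00000070109.2. Within 10 kb on the same strand, each gene had its partner as the only other annotated miRNA gene.

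Replicate 1 held 4562135 counts on the strand of miRNA genes and replicate 2 held 5771249. Levels are in CPM, counts per 1000000 of that total. The same total served for Mir497, although its opposite-strand counts are not among the counts summed there, so values for Mir497 are ratios to that total and not shares of it. A mature miRNA is read whole whatever the length of its hairpin, so levels of different genes were compared in CPM without division by length. How evenly different sequences entered the libraries was not tested, so ratios between genes are ratios of counts. Intervals are 95% Wilson intervals and cover counting error only, because PCR copies were not marked by molecular identifiers and reads are not independent molecules. A count of 0 allows up to 3 counts, or 0.658 CPM in replicate 1 and 0.520 CPM in replicate 2. The marker genes set down for the tissue were present: the lists of cartilage, mesenchyme and epithelium held summed levels of 22356 ± 2693, 28088 ± 1281 and 63424 ± 162 CPM (SD, n = 2). Markers of other cells summed to 565 ± 4.96 CPM for white blood cells without Mir142, which has no line of its own, 131 ± 41.6 CPM for red blood cells, 518 ± 161 CPM for striated muscle and 472 ± 62.8 CPM for neural cells, and the endothelial gene Mir126a stood at 24841 ± 1371 CPM. Of the listed neural genes 3 (Mir124a-1, Mir124a-3 and Mir9-2) and of the listed muscle genes 3 (Mir1a-1, Mir133a-1 and Mir133a-2) had 0 counts, which sets no limit on genes whose mature sequence has several loci.

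The counts of the 6 genes together came to 0.776% of the same-strand total in replicate 1 and 0.777% in replicate 2, with the opposite-strand counts of Mir497 set against that total. All were expressed well above the floor, and the Dleu2 pair was the most abundant of the 3 loci. It held 20050 counts in replicate 1 (0.439%, interval 0.433 to 0.446) and 26018 in replicate 2 (0.451%, 0.445 to 0.456). The pair of Mir195a and Mir497 followed with 9121 counts (0.200%, 0.196 to 0.204) and 11295 counts (0.196%, 0.192 to 0.199), of which the 4922 and 5886 counts of Mir497 lie outside the same-strand total. The Smc4 pair came last with 6214 counts (0.136%, 0.133 to 0.140) and 7509 counts (0.130%, 0.127 to 0.133). The loci did not overlap in either library. The Dleu2 pair exceeded the Smc4 pair 3.35 ± 0.169-fold (SD, n = 2) and the Mir195a pair 2.25 ± 0.0744-fold, and the Mir195a pair exceeded the Smc4 pair 1.49 ± 0.0257-fold.

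Because reads of miR-16-5p are missing from both Mir16 genes, the loci were also compared without these genes. The order in counted reads stayed the same. This comparison cannot place the uncounted reads of miR-16-5p, so the order of the loci with those reads included is not known. Mir15a alone stood 0.53 on the log2 scale above the sum of Mir195a and Mir497, compared with 1.17 for the whole Dleu2 pair, so this ratio rests in large part on Mir16-1. Without the Mir16 genes the log2 ratio of the Dleu2 to the Smc4 locus was 1.47 in place of 1.74, and that of the Mir195a locus to the Smc4 locus 0.94 in place of 0.57.

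Mir15a, the leading gene of the family in counts, stood at 2965 CPM (13527 counts) and 2737 CPM (15796 counts) in replicates 1 and 2, a mean of 2851 ± 161 CPM (SD, n = 2). Its hairpin partner Mir16-1 stood at 1430 CPM (6523 counts) and 1771 CPM (10222 counts). Both values of Mir16-1 lay below both of Mir15a, and the libraries were ordered oppositely for the partners: replicate 1 was the higher for Mir15a and replicate 2 for Mir16-1.

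Mir15b, whose mature sequence is the nearest relative of miR-15a-5p, stood at 1067 CPM (4868 counts) and 994 CPM (5736 counts). Its partner Mir16-2 was the lowest of the 6 genes in counted reads, at 295 CPM (1346 counts) and 307 CPM (1773 counts). Like the Dleu2 pair, the Smc4 pair had its Mir15 gene well above its Mir16 gene in both libraries.

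Mir195a stood at 920 CPM (4199 counts) in replicate 1 and 937 CPM (5409 counts) in replicate 2. Mir497, read from the other strand of Mir497b, stood at 1079 CPM (4922 counts) and 1020 CPM (5886 counts). The sequence of the other strand is shown because it tells the genes apart: it lacks the seed of the family, and its own bases 2 to 8 are in capitals.
Mir497b, miR-497b: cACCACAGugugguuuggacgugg

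On its own strand Mir497b had 1 and 4 counts, and none of the other 5 genes had an opposite-strand count in either library. Of all counts at the place of Mir497b, nearly all therefore lay on the strand of Mir497.

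**Figure D1:**
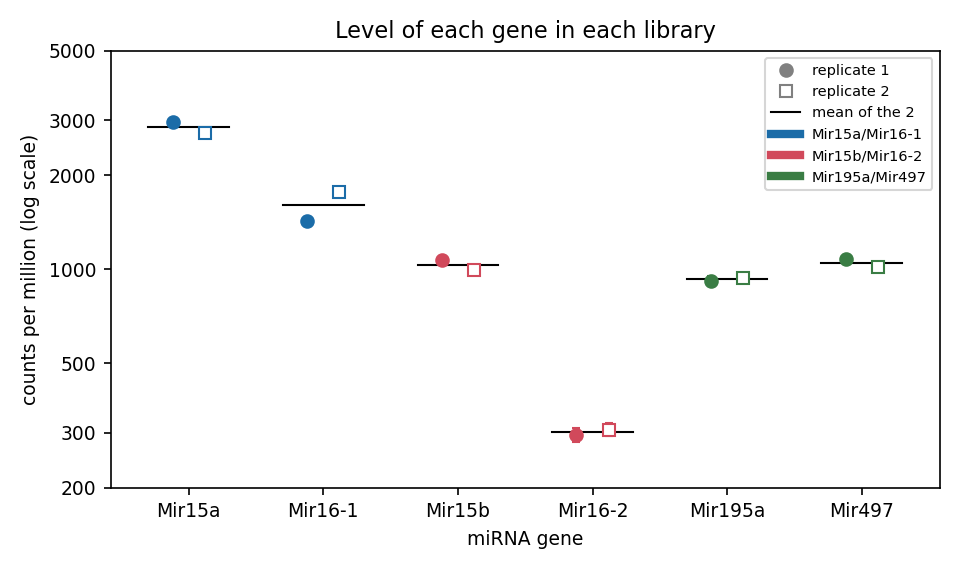
Level of each gene in CPM (log axis) in replicate 1 (filled circles) and replicate 2 (open squares), coloured by locus, with 95% Wilson intervals, mostly smaller than the symbols, and a line at the mean of the 2 libraries. Mir15a leads at 2965 and 2737 CPM, Mir16-2 is lowest at 295 and 307 CPM, and Mir497 and Mir15b overlap near 1000 CPM.

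In order of mean level the genes ran Mir15a, Mir16-1, Mir497, Mir15b, Mir195a and Mir16-2, with the Mir16 genes placed by reads other than miR-16-5p. Neighbours in this order were taken to be apart only where both libraries of one lay above both of the other. That held for 4 of the 5 neighbouring pairs. Mir497 and Mir15b were not apart: their ratio was 1.02 ± 0.0106 (SD, n = 2), and their ranges over the libraries overlapped. Mir15b and Mir195a were apart by a small margin, with a ratio of 1.16 in replicate 1 and 1.06 in replicate 2. Mir195a exceeded Mir16-2 3.09 ± 0.0487-fold.

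Between loci, the ratio of the Mir15 genes was the steadiest. Mir15a exceeded Mir15b 2.78-fold in replicate 1 and 2.75-fold in replicate 2, and neither gene shares its mature sequences with another gene of the table. Mir16-1 exceeded Mir16-2 4.85-fold and 5.77-fold, which compares only their uniquely placed reads. Mir15a exceeded Mir497 2.75-fold and 2.68-fold and Mir195a 3.22-fold and 2.92-fold.

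Among the 374 lines with at least 10 counts in both libraries (360 on the strand of the gene and 14 opposite-strand), Mir15a ranked 65 by mean level, Mir16-1 ranked 89, Mir497 ranked 98, Mir15b ranked 99, Mir195a ranked 105 and Mir16-2 ranked 144. The gene nearest in level to each, by Euclidean distance in log2 CPM over the 2 libraries, was Mir361 for Mir15a (distance 0.09), Mir148a for Mir16-1 (0.08), Mir135b for Mir16-2 (0.09) and Mir542 for Mir195a (0.06). Mir434 was nearest to both Mir15b (0.03) and Mir497 (0.04), at 1051 and 1008 CPM. With 2 libraries this likeness describes level only.

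**Figure D2:**
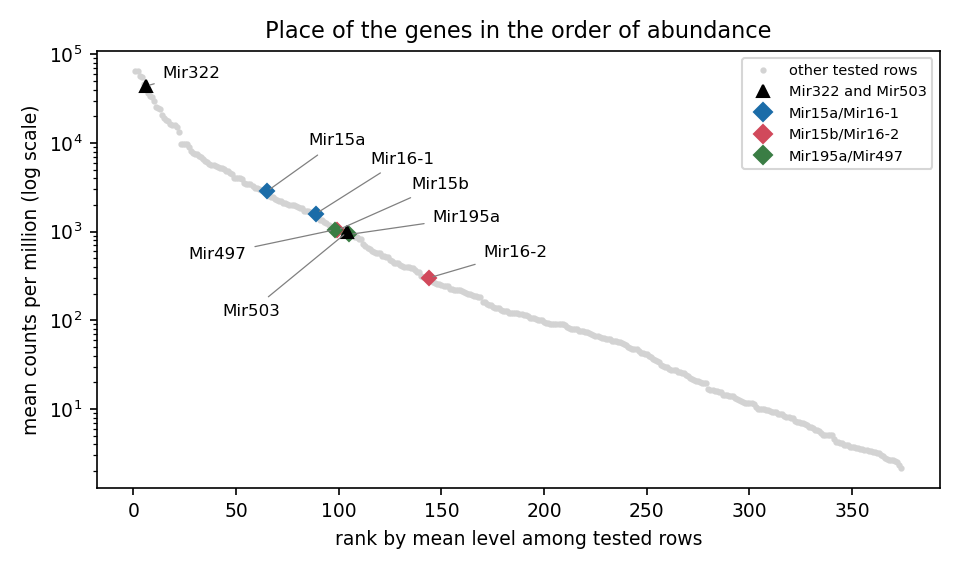
Mean CPM (log axis) of the 374 lines with at least 10 counts in both libraries, against their rank; diamonds are the 6 genes, coloured by locus, and triangles are Mir322 and Mir503. The 6 genes take ranks 65 to 144, while Mir322, which has the same seed, ranks 6.

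The balance of counted reads between the genes of a locus differed among the loci. Mir15b made up 78.3% of the counts of the Smc4 pair in replicate 1 (interval 77.3 to 79.3) and 76.4% in replicate 2 (75.4 to 77.3). Mir15a made up 67.5% of the Dleu2 pair in replicate 1 (66.8 to 68.1) and 60.7% in replicate 2 (60.1 to 61.3). Mir195a made up 46.0% of its pair (45.0 to 47.1) and 47.9% (47.0 to 48.8). So the Mir15 genes led their pairs, while Mir195a and Mir497, whose mature sequences are each found at a single gene of the table, stood close to each other.

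Only at the Dleu2 pair did the intervals of the libraries lie clear of each other. There Mir15a exceeded Mir16-1 2.07-fold in replicate 1 and 1.55-fold in replicate 2, a shift of 1.34-fold. The shift was 1.12-fold at the Smc4 pair and 1.08-fold at the Mir195a pair. Intervals that meet do not show an equal balance, and the shifts were not tested against counting error. For comparison, pairs were formed of neighbours on 1 strand, at most 10 kb apart, among miRNA genes with at least 10 same-strand counts in both libraries. Mir497 entered by its opposite-strand counts, and the other opposite-strand lines were left out. The 108 pairs had a median shift of 1.17-fold. Of these, 23 shifted more than the Dleu2 pair, 63 more than the Smc4 pair and 75 more than the Mir195a pair. The genes of a neighbouring pair stood a median of 8.63-fold apart. The 3.42-fold, 1.79-fold and 1.13-fold of the Smc4, Dleu2 and Mir195a pairs, as geometric means over the libraries, all lay under that median, and 105 of the 108 pairs were less balanced than Mir195a and Mir497. These counts describe the libraries and are not tests, since pairs of 1 cluster share genes. They leave out reads with several places, as at the Mir16 genes. How many of the other pairs hold a gene with such reads was not tested, nor was their part in the median.

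**Figure D3:**
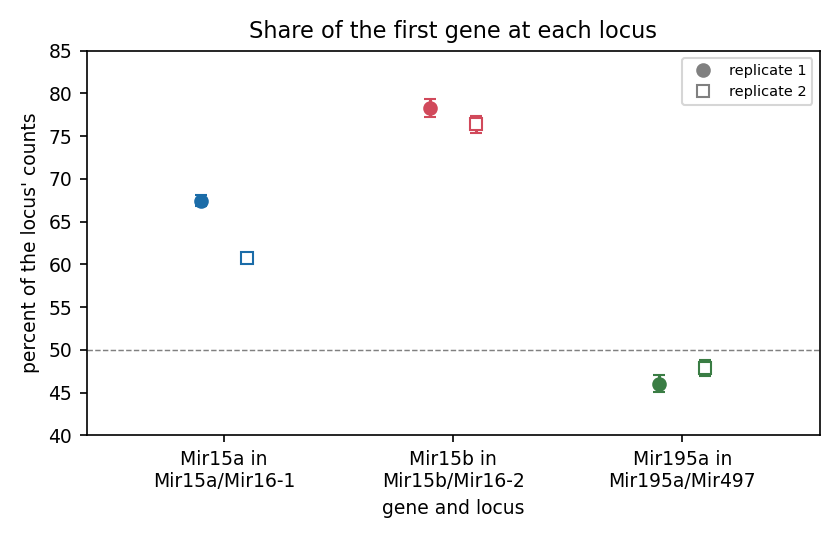
Percent of the counts of each locus that belong to its first gene (Mir15a, Mir15b or Mir195a) in replicate 1 (filled circles) and replicate 2 (open squares), with 95% Wilson intervals; the axis runs from 40 to 85% and the dashed line marks equal counts. Mir15a makes up 67.5% in replicate 1 and 60.7% in replicate 2, while the intervals of the libraries meet at the other loci.

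Differences between the libraries were set against counting error by a two-sided exact binomial test after TMM scaling in edgeR, with Benjamini-Hochberg adjustment over all 374 lines. The test compares these libraries, not conditions. It called 55.6% of all lines, and 3 of the 6 genes, which is near that background. Among the 270 lines with at least 100 counts in both libraries, which include all 6 genes, it called 69.3%, and again 3 of the 6 genes. Mir16-1 was higher in replicate 2, at a log2 ratio of replicate 2 to replicate 1 of 0.33 (95% exact interval 0.29 to 0.38, adjusted p = 1.23e-47, exact binomial test). Mir15a was higher in replicate 1, at -0.09 (-0.13 to -0.06, adjusted p = 1.99e-07, exact binomial test), as was Mir15b at -0.08 (-0.13 to -0.02, adjusted p = 0.0108, exact binomial test).

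The other genes did not pass. Mir497 had a log2 ratio of -0.06 (adjusted p = 0.0671, exact binomial test), Mir195a one of 0.05 (adjusted p = 0.143) and Mir16-2 one of 0.08 (adjusted p = 0.171). With DESeq2 size factors Mir497 passed (adjusted p = 0.0416), and likewise with total counts (adjusted p = 0.00797). By size all 6 were close between the libraries: Mir16-1 differed 1.26-fold and the other 5 by at most 1.07-fold. The median log2 ratio was 0.00 over the 6 genes and 0.01 over all lines, with 1 gene called higher in replicate 2 and 2 genes in replicate 1, against 114 (30.5%) and 94 (25.1%) of all lines. Red blood cell markers were also higher in replicate 2 (160 against 101 CPM in sum). Of these, Mir486 did not pass, at 10.3 and 9.01 CPM in replicates 1 and 2. Cartilage markers summed to 20452 and 24260 CPM, mesenchyme markers to 28994.1 and 27182.5 CPM and epithelium markers to 63539 and 63309 CPM. Of their tested genes, 1, 3 and 5 were called higher in replicate 2, and 1, 1 and 2 in replicate 1. Neural markers in sum and Mir126a were higher in replicate 1 (516 against 428 and 25810 against 23871 CPM). Of the 4 tested neural genes, 2 were called higher in replicate 1 and 2 did not pass. White blood cell markers were near equal in sum (569 and 562 CPM in replicates 1 and 2). Of their 4 tested genes, 1 was called higher in replicate 2 and 1 in replicate 1, and 2 did not pass. White blood cell Mir142 has no line, and the opposite-strand counts of Mir142b, drawn over it, stood at 373 and 406 CPM outside that sum. Striated muscle markers summed to 632 CPM in replicate 1 and 404 CPM in replicate 2, carried by Mir206 (570 and 314 CPM), while 3 of their 5 tested genes (Mir208a, Mir208b and Mir499) were higher in replicate 2. The part of these cells in the shift of Mir16-1 was not tested.

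**Figure D4:**
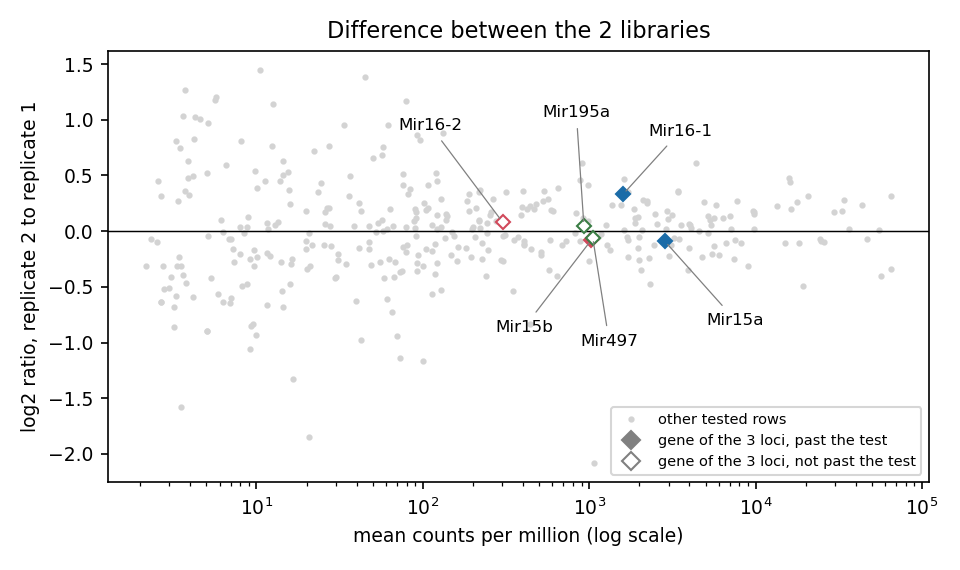
Log2 ratio of replicate 2 to replicate 1 against mean CPM (log axis) for the 374 lines; diamonds are the 6 genes, coloured by locus and filled where they passed the exact binomial test. Mir16-1 lies at 0.33 and the other 5 genes between -0.09 and 0.08.

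The same seed occurs outside the 3 loci. RefSeq lists 11 mouse genes with a mature sequence that has these 7 bases at positions 2 to 8: the 6 described here, and Mir322, Mir195b, Mir6342, Mir6353 and Mir6419. Mir322, the mouse counterpart of human MIR424, is shown because it carries most counts of this seed group.
Mir322, miR-322-5p: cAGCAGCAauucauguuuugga

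Mir322 had 184954 counts (40541 CPM) in replicate 1 and 271494 (47042 CPM) in replicate 2. The other 4 genes had 0 counts in both libraries, which allows up to 0.658 and 0.520 CPM each; Mir195b was among them, although its sequence follows miR-195a-5p for 16 bases. Of all counts at genes with the seed, the 6 genes held 16.1% in replicate 1 (interval 15.9 to 16.2) and 14.2% in replicate 2 (14.0 to 14.3), and Mir322 held the rest. Mir322 thus exceeded the 6 genes together 5.64 ± 0.587-fold (SD, n = 2). These are counts per hairpin, in which 3p reads also count and reads of miR-16-5p are missing, so the share of the family in the mature seed pool may be larger or smaller. Mir503, next to Mir322 on the X chromosome, differs from the seed in its last base (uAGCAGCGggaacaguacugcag, bases 2 to 8 in capitals). It stood at 961 and 1008 CPM, between Mir15b and Mir195a in mean level and overlapping Mir15b over the libraries.

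Other miRNAs that act on the cell cycle served as a frame. Of a list of 22 genes tied to restraint of the cell cycle, including let-7, Mir34 and Mir26 genes, Mir322 and Mir503, 20 were in the files and 18 had at least 10 counts in both libraries. The list summed to 214690 and 205435 CPM, led by Mirlet7i (65548 ± 11599 CPM), Mirlet7g (55052 ± 352 CPM) and Mir322 (43792 ± 4597 CPM). Of its 18 tested genes, replicate 2 was the higher for 11 and replicate 1 for 4, and 3 did not pass the exact binomial test, where 30.5% and 25.1% of all lines were called in these directions. The 15 genes of the Mir17 to Mir92 cluster and its paralogs, known to promote proliferation, summed to 82507 and 89749 CPM, led by Mir17 (36397 ± 32.0 CPM), Mir93 (16133 ± 3273 CPM) and Mir20a (13445 ± 1314 CPM). Of these, 6 passed with the higher level in replicate 1, 6 with it in replicate 2, and 3 did not pass, against 55.6% of all lines called in either direction. The 6 genes of the miR-15/16 family summed to 7756 and 7766 CPM, below both lists.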

How the data were processed

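For each of the 2 libraries the authors deposited raw read counts by miRNA gene. The build was mm10 and the annotation GENCODE M4, per the description files deposited with them. The aligner is not given in the sources used here. The columns were read, from their layout, as counts without regard to strand, on the strand of the gene and on the opposite strand; the first equalled the sum of the others in all 1973 genes. Every total leaves out reads with several places (30.7% and 31.0% of the reads of replicates 1 and 2), those that did not map (20.6% and 20.9%) and those outside genes. Names and positions came from GENCODE M21, joined by identifier without version (1894 of 1973 matched), and sequences from RefSeq (GRCm38.p6).

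Library sizes were scaled by TMM (edgeR 4.0.16, R 4.3.3). The exact binomial test, on lines with at least 10 counts in both libraries, was tested on simulated data, with calls at an adjusted p under 0.05. Log2 ratios of genes and loci used a pseudocount of 0.5 reads. Alternatives were the unstranded counts, DESeq2 1.42.0 size factors, total counts, other totals, count minimums of 1 and 100, a pseudocount of 5 reads, same-strand lines only, and leaving out the Mir16 genes or each library. The named genes were the 6 genes, those with their seed or within 10 kb, the nearest gene in level to each, and up to 3 of the highest genes of each list; Mir503 is on the cell cycle list, and the pairs of neighbouring genes, Mir142b, Mir208a, Mir499 and Mir99a were chosen after their values were seen. The 6 genes and all lists were chosen with earlier results of these data known. Nothing in the labels says how many embryos each library pooled, so spreads and p-values cover these libraries.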

Additional observations from a re-analysis of the deposited data

Results flagged for a closer look

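The files give reads with several places in the genome as a class without genes. It held 3179149 reads in replicate 1 and 4058237 in replicate 2, above the floor of 3 counts, and how many came from the 6 genes was not tested. On its own strand Mir497b had 4 counts in replicate 2, also above the floor, and 1 count in replicate 1.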

How the results depend on the processing

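No paired analysis was possible because the study has 1 group. Across the alternatives the order of the loci in counted reads stayed the same, and no ratio of genes or loci changed direction. None of the alternatives places the uncounted reads of miR-16-5p. The median log2 ratio over all lines was 0.01 and, with total counts, -0.01. Leaving out each library gave log2 ratios of 0.63 to 1.05 for Mir15a to Mir16-1, 1.69 to 1.85 for Mir15b to Mir16-2 and -0.23 to -0.12 for Mir195a to Mir497. In the total without Mirlet7i, its most abundant gene by mean (65548 CPM, next to Mir99a at 65543 CPM, which led in replicate 2), the shares of the Dleu2, Smc4 and Mir195a pairs were 0.476%, 0.143% and 0.212%, since the total is smaller. Counts without regard to strand gave 0.433% for the Dleu2 pair and 0.193% for the Mir195a pair. The counts of the main setting, opposite-strand for Mir497, over the total of both strands gave 0.433% and 0.192%. Without the Mir16 genes the log2 ratios were 1.47 (Dleu2 to Smc4), 0.53 (Dleu2 to Mir195a) and 0.94 (Mir195a to Smc4), and the share of the genes in the counts of the seed was 11.9% in place of 15.1%, an alternative added after the data were seen. The number of lines called ranged from 187 of 270 (69.3%, minimum of 100 counts) to 212 of 585 (36.2%, minimum of 1 count). It was 208 of 374 (55.6%) in the main setting. With total counts 105 were higher in replicate 2 and 104 in replicate 1, against 114 and 94. Of the 6 genes 3 or 4 were called in each setting, against 36.2% to 69.3% of all lines, and the fourth was Mir497. Mir497 has no value among same-strand lines only. Depth does not limit the levels of the 6 genes, but the uncounted reads of miR-16-5p limit those of Mir16-1 and Mir16-2.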
